A study of Mus musculus with 15 samples.

Results

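The 10 genes Bcl2, Bcl2l1, Mcl1, Bax, Bak1, Bid, Bad, Bbc3, Pmaip1 and Bcl2l11 are the core members of the BCL2 family, and they were read by symbol from a table of 55341 gene symbols measured by RNA sequencing. All 10 are in that table. Counts were sufficient for 9 to be tested, and Pmaip1 was left untested because it was nearly silent. The cells are 6DT1, a line grown from mammary cancer of the mouse strain background FVB/N1, and no animal or tumour tissue was sampled. Wild-type cells and cells with a CLIC4 knockout were each left untreated or given 1 µM hydrogen peroxide (H2O2) for 24 h, with 4 untreated wild-type (replicates 9 to 12), 4 treated wild-type (13 to 16), 4 untreated knockout (1 to 4) and 3 treated knockout libraries (5, 7 and 8). CLIC4 is a chloride intracellular channel protein that is found in mitochondria among other places. The labels do not say how many knockout clones were used or whether replicates were separate cultures, so p-values measure only the spread between these libraries. Replicate 9 carries knockout in its genotype field and wild type in its title, and was taken as wild type.

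BCL2 family proteins decide whether the outer mitochondrial membrane stays closed. BAX and BAK form the pores that release cytochrome c and so start the caspase cascade. BCL2, BCL-XL (the product of Bcl2l1) and MCL1 hold them in check, and the BH3-only proteins BID, BAD, PUMA (Bbc3), NOXA (Pmaip1) and BIM (Bcl2l11) transmit stress signals by binding the guardians or the pore formers. In mammary epithelium the family governs the cell death of involution after lactation, and MCL1 and BCL-XL are well known survival factors of breast cancer cells. Much of its control lies in splicing, phosphorylation, cleavage and protein turnover, none of which a gene count can show.

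Libraries held between 12.31 and 16.03 M counts. Clic4 itself was reduced and not absent, at 321 ± 5.05 counts per M after normalisation (CPM, scaled by TMM; mean ± SD, n = 4) in wild-type and 71.3 ± 4.92 CPM (n = 4) in knockout cells without treatment. Replicate 9 carried the wild-type level. Of 7 markers of mammary epithelium, Krt8 averaged 646 CPM in untreated wild-type and 649.5 CPM in untreated knockout libraries. Between the same groups Krt18 fell from 334 to 153 CPM and Krt19 rose from 54.2 to 156 CPM (log2 −1.12 and 1.52), while Elf3 went from 0 counts to 4.48 ± 1.56 CPM. Epcam, Cdh1 and Cldn3 stood below 0.1 CPM in every group mean, so the line lacks several defining epithelial transcripts. Erythroid markers summed to between 0 and 1.01 CPM and endothelial markers to between 0.818 and 3.51 CPM per library. The 8 immune markers summed to 399–445 CPM in wild-type and 291–324 CPM in knockout libraries without treatment, nearly all of it Cd68. Cd14 went the other way, from a mean of 14.6 to 21.9 CPM. The 5 fibroblast markers, of which Lum was at 0 throughout, summed to 19.4–21.8 and 11–13.7 CPM in the same groups. Nearly all of that was Pdgfra, at means of 19.5 and 11.0 CPM. Col1a1 was lower as well (0.886 and 0.459 CPM), while the barely counted Dcn (0.155 and 0.287 CPM) and Col3a1 (0.0159 and 0.0846 CPM) were not. The part of these marker shifts in the results below was not tested. Wild-type replicate 9 stood apart: it held 4.52 CPM of the leukocyte gene Ptprc and 8.64 CPM of Laptm5, against at most 0.213 CPM of either in any other library. It also held 19.4 CPM of Lyz2 (at most 0.327 elsewhere), 2.36 of Pecam1, 1.76 of Csf1r and 0.878 of Cd3e. The highest erythroid and endothelial sums above, 1.01 and 3.51 CPM, both came from replicate 9. Without it the same counts of members were called in the untreated genotype comparison, 5 lower and 0 higher, and the 5 differences were −0.43 for Bad, −0.38 for Bid, −0.37 for Bax, −0.27 for Bak1 and −0.16 for Bcl2l1 (log2).

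Levels can be compared between genes only per length, on the deposited RPKM scale (reads per kilobase of gene per M counts). The gene lengths implied by that scale, such as 1923 bases for Bad and 2992 for Bid, are shorter than their 2558 and 3550 annotated exon bases. The order of close neighbours such as Bad and Bbc3 therefore depends on the lengths used. Mcl1 was the most abundant member in untreated wild-type cells at 99.6 ± 1.73 RPKM (SD, n = 4), ahead of Bax at 70.1 ± 4.96 and Bid at 48.9 ± 0.787 RPKM. Bak1 followed at 30.8 ± 1.9 RPKM, then Bcl2l1 at 26.6 ± 1.08 and Bad at 16.0 ± 1.67 RPKM. Bbc3 stood at 12.7 ± 1.39 RPKM, Bcl2l11 at 10.8 ± 0.297 and Bcl2 at 2.39 ± 0.23 RPKM. In that order only Bad and Bbc3 were neighbours whose library ranges overlapped. Among the guardians Mcl1 therefore supplied 77.4 ± 0.466% of the summed RPKM of the 3 anti-apoptotic genes, while Bcl2, the gene that names the family, had the lowest level of the 9 tested members.

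The order was partly different in knockout cells. Bbc3 stood above Bad without treatment, at 14.2 ± 2.12 against 11.4 ± 1.56 RPKM with overlapping ranges, and with H2O2 the ranges of 15.1 ± 1.25 and 12.3 ± 0.37 RPKM (n = 3) did not overlap. Bak1 and Bcl2l1 overlapped there, at 24.4 ± 1.08 and 22.9 ± 0.925 RPKM in untreated knockout cells and 23.7 ± 0.548 and 24.2 ± 0.397 RPKM in treated ones. Mcl1, Bax and Bid kept the top 3 places in all 4 groups.

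**Figure D1:**
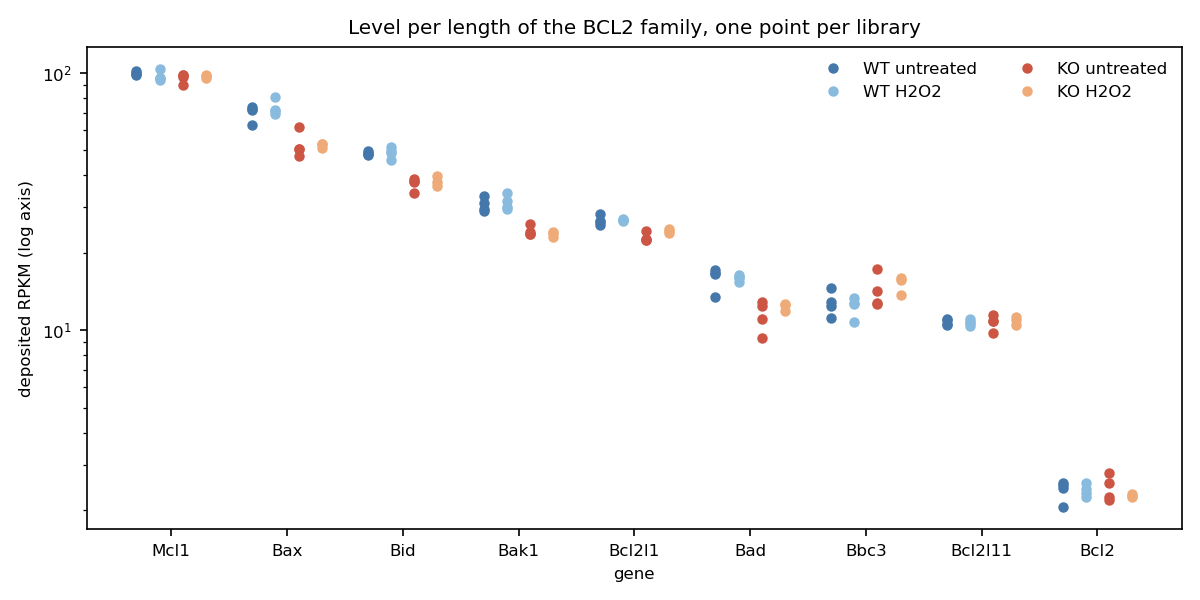
Deposited RPKM (log axis) of the 9 members with enough counts, 1 point per library, coloured by group and ordered by the untreated wild-type mean. Mcl1 lies near 99.6 RPKM and Bcl2 near 2.39 RPKM, and the mean of Bad lies below that of Bbc3 in both knockout groups, though not in every library.

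The genotype comparison asked how transcription differs between knockout and wild-type cells. As the number of clones is not given, a difference between clones cannot be told apart from loss of CLIC4. Of the 9 tested members, 5 were lower in untreated knockout cells and 0 higher by edgeR's quasi-likelihood test with Benjamini-Hochberg adjustment over 13085 genes. They were the pore formers Bax and Bak1, the BH3-only genes Bid and Bad, and the guardian Bcl2l1. Across all tested genes 66.8% were called, 32.9% lower and 33.9% higher. The 5 called of 9 are a smaller share than that, and the 5 lower of 9 a larger share than 32.9%; with so few genes the count alone is no result about the family. The median log2 fold change was −0.18 over the 9 members and 0.00 over all tested genes. All differences were modest: the most changed member, Bad, moved by more than 65.3% of tested genes did, and Mcl1 by more than only 5.21%.

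With H2O2 the same 5 members were lower and Bbc3 was higher, where 65.4% of all genes were called, 32.4% lower and 33% higher. The untreated and treated comparisons share no library, but they come from the same model and compare the same genotypes, so they are not independent. Of the 13085 tested genes 3755 were lower in both. When a change beyond 1.2-fold was required (glmTreat in edgeR, same adjustment), Bid and Bad remained lower without treatment (2 of 9 members, where 36.8% of all genes passed and 18.1% of all genes were lower). With H2O2 Bax, Bak1 and Bid did (3 of 9 members, where 37% of all genes passed and 18.3% of all genes were lower). Over all 7 knockout and 8 wild-type libraries the CPM ranges of Bcl2l1, Bak1, Bid and Bad did not overlap, 4 of 9 members lying wholly below, as did 23.5% of all tested genes.

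**Figure D2:**
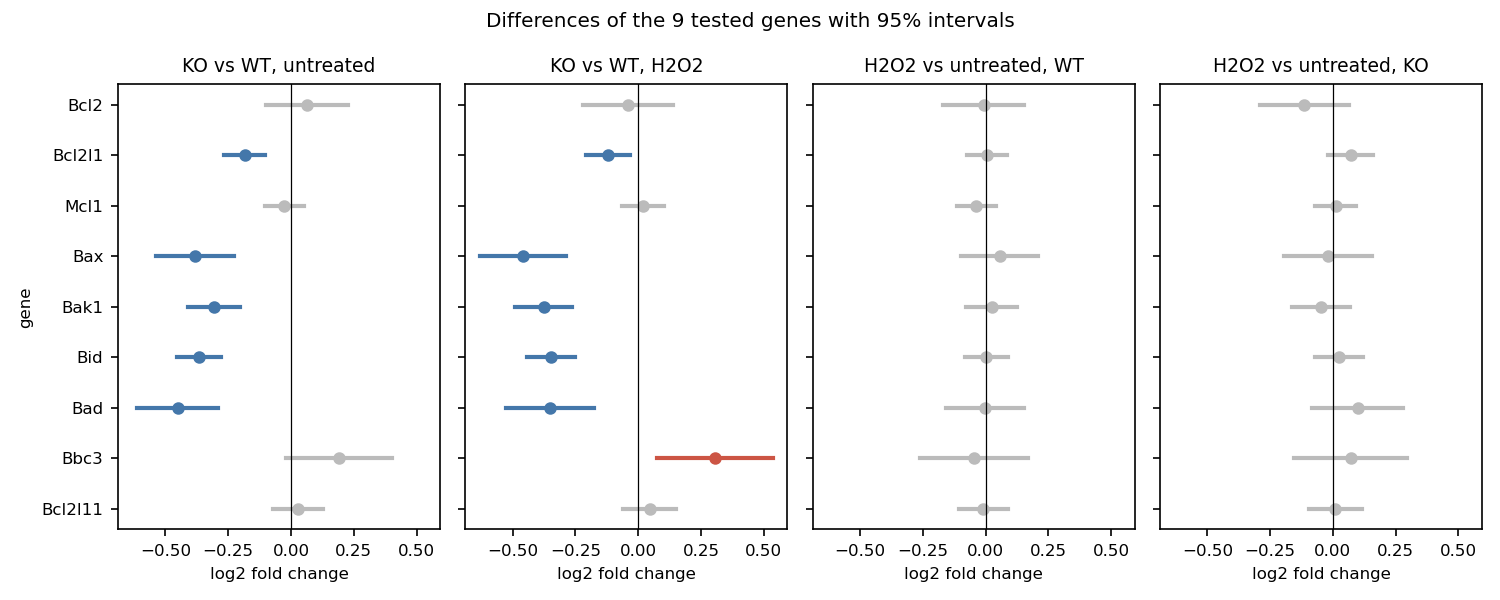
Log2 fold changes (points) with 95% intervals (bars) of the 9 tested members in 4 comparisons; blue is called lower, red called higher, grey not called. Bax, Bak1, Bid, Bad and Bcl2l1 lie left of 0 in both genotype panels, and no member is called in either H2O2 panel.

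Of the guardians, 1 of 3 was lower. Bcl2l1 (chromosome 2, 152780668–152831728, mm10, minus strand), whose main product BCL-XL sits on the mitochondrial outer membrane, read 90.8, 85.4, 83.0 and 85.3 CPM in the wild-type libraries without treatment, against 73.9, 80.6, 74.7 and 74.0 CPM in the knockout ones. With H2O2 it read 85.6, 86.1, 87.4 and 87.0 CPM in wild-type and 80.8, 78.4 and 79.6 CPM in knockout cells. Every knockout library was below every wild-type one. Between untreated cells of the 2 genotypes Bcl2l1 fell by 12% (log2 −0.18, SE 0.0399, adjusted p 0.000198). Between treated cells of the 2 genotypes it fell by 7.98% (log2 −0.12, SE 0.0433, adjusted p 0.0167; edgeR). The latter difference lost its call without knockout replicate 7 (adjusted p 0.0651), and neither exceeded 1.2-fold. Gene counts do not separate the long BCL-XL form from the short BCL-XS form, which promotes death.

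Mcl1 and Bcl2 showed no detectable genotype difference. Mcl1 (chromosome 3, 95658788–95663176, plus strand), a guardian with a very short protein life, ranged from 167 to 173 CPM in wild-type and from 156 to 171 CPM in knockout libraries without treatment, so the groups overlapped. Its log2 fold change was −0.03 with a 95% interval of −0.10 to 0.05, which bounds any change well under 1.2-fold. Bcl2 (chromosome 1, 106538178–106714274, minus strand), the founding guardian, ranged from 16.1 to 19.9 CPM and from 17.5 to 22.2 CPM in the same groups. The interval of its log2 difference ran from −0.10 to 0.23 without treatment and from −0.22 to 0.14 with H2O2, wider than that of Mcl1.

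Both pore formers were lower in knockout cells. Bax (chromosome 7, 45461697–45466898, minus strand) read 115, 114, 100.7 and 119 CPM in untreated wild-type libraries against 82.6, 83.1, 100.8 and 77.5 CPM in untreated knockout ones. With H2O2 the values were 111, 114, 113 and 129 CPM in wild-type and 85.8, 86.2 and 82.6 CPM in knockout cells. Knockout replicate 3 alone reached the wild-type range, at the level of wild-type replicate 11, and the treated groups did not overlap. Bax fell by 23.3% in untreated cells (log2 −0.38, SE 0.0737, adjusted p 0.000247). Between treated knockout and treated wild-type cells it fell by 27.3% (log2 −0.46, SE 0.0806, adjusted p 0.000104; edgeR). Without knockout replicate 3 the untreated difference was −0.48.

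Bak1 (chromosome 17, 27019810–27029009, minus strand), which resides on the mitochondrial membrane where BAX is mostly cytosolic until activated, followed the same direction with less scatter. Untreated, it read 72.0, 67.9, 64.1 and 63.5 CPM in wild-type against 52.5, 52.9, 53.7 and 57.4 CPM in knockout libraries. Treated libraries gave 65.1, 68.7, 64.4 and 73.9 CPM in wild-type and 53.1, 53 and 50.9 CPM in knockout cells. No knockout library reached a wild-type one. In edgeR the log2 difference was −0.30 (SE 0.0505, adjusted p 5.82e-06) in untreated cells. It was −0.38 (SE 0.0553, adjusted p 9.53e-07) under H2O2. The gene shares 614 exon bases with Ggnbp1 on the opposite strand, which held 307 counts over all libraries against 13303 for Bak1.

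**Figure D3:**
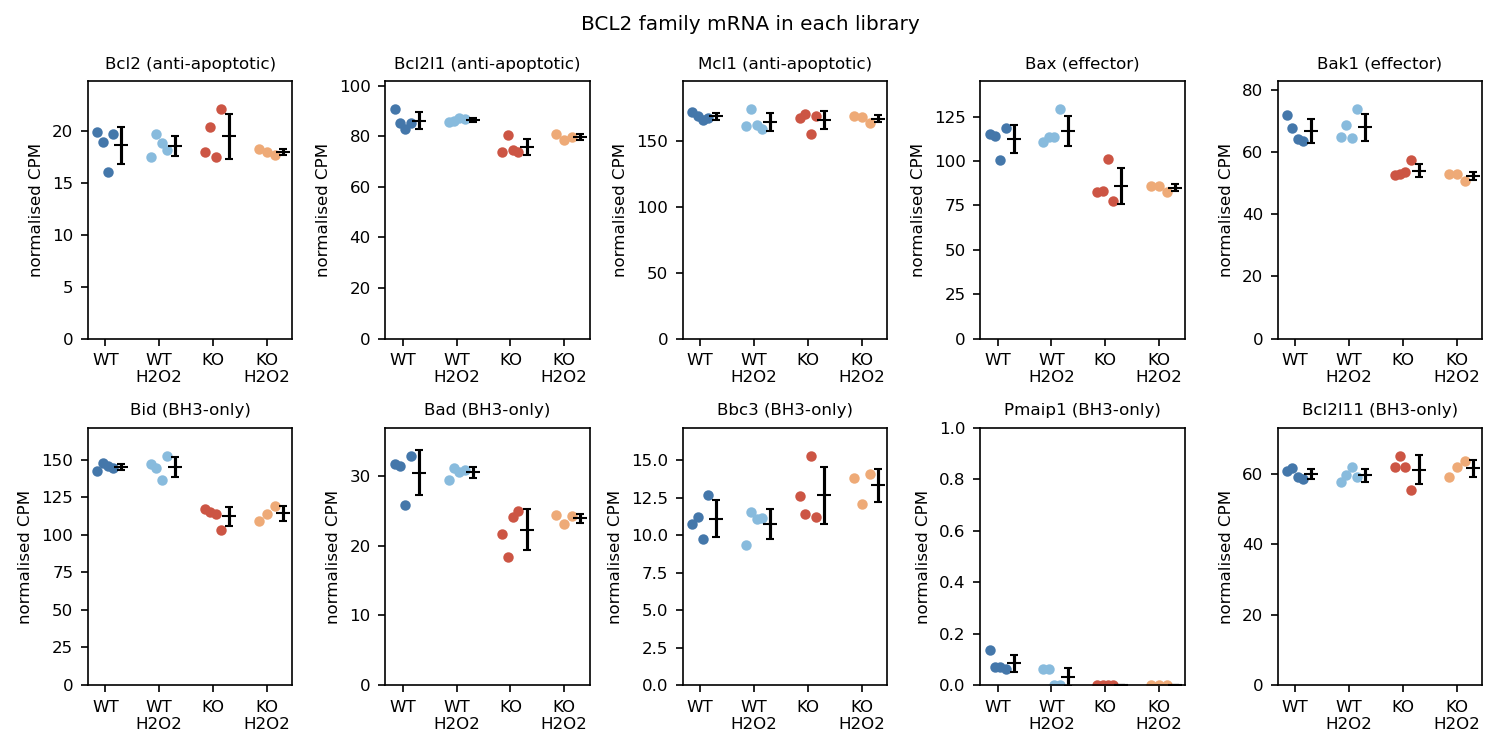
Normalised CPM (axes start at 0) of the 10 members in the 4 groups; coloured points are libraries, and black marks give the mean and SD. Bax, Bak1, Bid, Bad and Bcl2l1 sit lower in both knockout groups, Mcl1, Bcl2 and Bcl2l11 overlap between genotypes, and Pmaip1 lies at or near 0.

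The BH3-only genes split. Bid and Bad were lower in knockout cells with and without H2O2, Bbc3 was higher with H2O2, Bcl2l11 showed no detectable difference, and Pmaip1 was barely counted. Bid (chromosome 6, 120891930–120916853, minus strand), whose protein is cut by caspase-8 to link death receptors to mitochondria, read 142, 148, 146 and 144 CPM in wild-type against 117, 115, 114 and 103 CPM in knockout libraries without treatment. The treated libraries gave 147, 144, 137 and 153 CPM against 109, 114 and 119 CPM. The genotypes were separated by a clear gap. Bid had the smallest adjusted p of the members in edgeR. Its log2 difference was −0.37 (SE 0.0426, adjusted p 1.46e-08) in untreated cells and −0.35 (SE 0.0464, adjusted p 2.00e-07) under H2O2.

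Bad (chromosome 19, 6941861–6951899, plus strand), which survival kinases silence by phosphorylation, read 31.7, 31.5, 25.8 and 32.9 CPM in wild-type against 21.7, 18.3, 24.1 and 25 CPM in knockout libraries without treatment. It read 29.4, 31.1, 30.6 and 30.8 CPM in treated wild-type and 24.4, 23.1 and 24.2 CPM in treated knockout libraries. Wild-type replicate 11 lay just above the highest knockout library. Bad fell by 26.8% in untreated cells (log2 −0.45, SE 0.0788, adjusted p 1.46e-05). Between the genotypes under H2O2 it fell by 21.6% (log2 −0.35, SE 0.0855, adjusted p 0.000801; edgeR).

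Both genes overlap a neighbour on the opposite strand. Bid shares 628 of its 3550 annotated exon bases with Bcl2l13, itself a BCL2-related gene, which was higher in untreated knockout cells (log2 0.17, SE 0.0411, adjusted p 0.000569, edgeR). Bad shares 524 of 2558 with Gpr137, a lysosomal membrane protein gene that was lower (log2 −0.51, SE 0.0879, adjusted p 1.05e-05, edgeR). The library kit keeps strand, but whether the counting used it is not given in the sources used here, so reads of these pairs may not be told apart. The part of Gpr137 in the Bad difference was not tested.

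The proximal promoters of the 4 pro-apoptotic genes that were lower are shown with that of Mcl1, for which no difference was detected, so that the sequences can be read side by side. Each is a RefSeq window on GRCm38.p6, the mm10 assembly, from 250 bases before to 50 bases after an annotated start (for Bad, the first of its windows), 5′ to 3′ on the gene's strand. Capitals mark matches, on either strand, to the motifs searched: the GC box (GGGCGG), the CCAAT box (those 5 letters), the TATAAA box, the E-box (CACGTG), the cyclic-AMP element (TGACGTCA), the ETS core (CCGGAAG), the AP-1 site (TGANTCA), and the NRF1 core and the p53 half-site, given by name. No matches overlapped in the windows printed.
Bax, chr7:45466849-45467148, minus strand: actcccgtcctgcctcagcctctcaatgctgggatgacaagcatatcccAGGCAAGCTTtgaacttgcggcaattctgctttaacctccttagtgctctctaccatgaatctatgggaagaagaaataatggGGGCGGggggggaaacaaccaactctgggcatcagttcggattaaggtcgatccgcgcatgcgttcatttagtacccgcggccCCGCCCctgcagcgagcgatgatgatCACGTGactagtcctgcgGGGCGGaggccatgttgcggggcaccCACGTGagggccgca
Bak1, chr17:27028578-27028877, minus strand: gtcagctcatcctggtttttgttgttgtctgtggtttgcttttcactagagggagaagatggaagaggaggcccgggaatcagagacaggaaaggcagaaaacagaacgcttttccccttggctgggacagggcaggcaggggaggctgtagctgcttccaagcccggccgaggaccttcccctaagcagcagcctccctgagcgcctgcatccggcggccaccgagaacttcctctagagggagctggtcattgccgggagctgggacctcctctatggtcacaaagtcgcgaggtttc
Bid, chr6:120916775-120917074, minus strand: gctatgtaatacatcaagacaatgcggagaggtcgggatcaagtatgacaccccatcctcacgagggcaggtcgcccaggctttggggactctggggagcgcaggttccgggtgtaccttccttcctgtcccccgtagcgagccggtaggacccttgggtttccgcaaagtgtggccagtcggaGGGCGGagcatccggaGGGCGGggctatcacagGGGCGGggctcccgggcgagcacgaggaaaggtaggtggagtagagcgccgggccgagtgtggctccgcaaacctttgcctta
Bad, chr19:6941611-6941910, plus strand: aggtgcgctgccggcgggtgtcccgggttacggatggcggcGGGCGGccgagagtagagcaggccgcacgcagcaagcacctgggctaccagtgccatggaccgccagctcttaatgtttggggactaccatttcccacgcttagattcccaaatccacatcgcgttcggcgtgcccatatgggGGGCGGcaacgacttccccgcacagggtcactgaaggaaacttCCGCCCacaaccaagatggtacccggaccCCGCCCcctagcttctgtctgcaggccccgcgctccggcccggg
Mcl1, chr3:95658471-95658770, plus strand: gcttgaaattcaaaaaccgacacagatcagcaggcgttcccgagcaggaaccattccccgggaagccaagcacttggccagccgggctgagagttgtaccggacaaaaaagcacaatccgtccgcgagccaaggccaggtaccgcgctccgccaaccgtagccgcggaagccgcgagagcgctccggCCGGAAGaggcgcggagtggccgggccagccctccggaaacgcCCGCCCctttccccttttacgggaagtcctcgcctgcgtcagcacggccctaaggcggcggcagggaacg

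Windows were found for 9 of the 10 members. The 4 lower genes shared no motif. GC boxes occurred 3 times in Bax, 3 times in Bid, 4 times in Bad and 1 time in Mcl1, and were not found in the Bak1 window. A GC box occurred in 35.7% of all 32851 promoter windows of this length. Bax alone among the 5 held E-boxes (2 matches, a motif in 7.15% of windows) and a p53 half-site (1 match, in 8.36%). Mcl1 held 1 ETS core, found in 8.86%. Of the motifs searched, CCAAT (37.4% of windows), TATA (13.6%), cyclic-AMP (1.79%), NRF1 (0.971%) and AP-1 (7.81%) matched none of these 5 windows. GC content was 57.3% for Bax, 58.3% for Bak1, 63.3% for Bid and 65.7% for both Bad and Mcl1, against a median of 52.7%. In windows not printed, GC boxes numbered 7 in Bcl2, 3 in each Bcl2l11 window and 4 to 7 in those of Bbc3, members not called lower. The lower gene Bcl2l1 had 0 in each of its 3 windows. The second Bad window had 0 GC boxes and 1 CCAAT box. GC boxes therefore did not separate the lower members from the others. These are matches of letters only.

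Bbc3 (chromosome 7, 16308393–16318205, plus strand) encodes PUMA, a p53 target that binds all the guardians. Untreated, it read 10.7, 11.2, 9.74 and 12.7 CPM in wild-type against 12.6, 11.4, 15.3 and 11.2 CPM in knockout libraries, which overlap. With H2O2 the values were 9.31, 11.6, 11.1 and 11.1 CPM in wild-type and 13.8, 12.1 and 14.1 CPM in knockout cells, which do not. The edgeR log2 difference was 0.19 (SE 0.103, adjusted p 0.106) in untreated cells, which did not pass. It was 0.31 (SE 0.112, adjusted p 0.0184) under H2O2, a rise of 23.6%. The difference between these 2 effects was itself not significant (interaction log2 0.12, adjusted p 0.959, edgeR). Averaged over both treatments, a contrast added after the data were seen, it was 0.25 (adjusted p 0.00461, edgeR). The call with H2O2 was lost without knockout replicate 5 (adjusted p 0.0703) or 8 (0.0719) or wild-type replicate 13 (0.0785). The untreated difference passed without knockout replicate 4 (0.0437) or wild-type replicate 12 (0.0438), and fell to 0.07 without knockout replicate 3.

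Bcl2l11 (chromosome 2, 128126038–128162547, plus strand) encodes BIM, a potent activator that growth-factor signalling keeps low. It ranged from 58.4 to 61.4 CPM in wild-type libraries without treatment and from 55.3 to 65.1 CPM in knockout libraries of the same kind. The log2 difference was 0.03 with a 95% interval of −0.07 to 0.13, and with H2O2 it was 0.05 with an interval of −0.06 to 0.15. Pmaip1 (chromosome 18, 66458533–66465565, plus strand), which encodes NOXA, the partner that targets MCL1, had 5 counts over the 4 untreated wild-type libraries and 2 over the 4 treated ones. It had 0 counts in all 7 knockout libraries, which allows up to 0.0298 CPM over them at 3 counts. The wild-type level of 0.0597 CPM carries an exact Poisson 95% interval of 0.024 to 0.123 CPM, for counting error only. NOXA mRNA was therefore close to undetectable in this line in every group, and no fold is given.

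No member changed detectably with H2O2. By edgeR, 0 of the 9 members were called in wild-type and 0 in knockout cells, against 0.0153% (0.00764% higher and 0.00764% lower) and 0.0535% of all genes. In either genotype 0 members had an unadjusted p under 0.05, beside 847 of 13085 tested genes in wild-type and 1041 in knockout cells. With so few members that count is no result about the family. DESeq2 called 0 members as well, but gave no adjusted p for Bcl2, Bad and Bbc3 in knockout cells, nor for these, Bak1 and Bcl2l11 in the interaction of genotype and treatment. In wild-type cells the point estimates ran from −0.05 for Bbc3 to 0.06 for Bax on the log2 scale. The upper 95% bound for Bax was 0.21 and for Bbc3 0.17, so a larger induction of these p53-responsive mRNAs at 24 h lies outside the wild-type intervals. Earlier times were not sampled. In knockout cells the estimates ran from −0.11 for Bcl2 (95% interval −0.29 to 0.06) to 0.10 for Bad (−0.08 to 0.28). The upper bound there was 0.15 for Bax and 0.30 for Bbc3. No member showed an interaction of genotype and treatment (0 of 9 called, 0 with an unadjusted p under 0.05), in a comparison where edgeR called 0% of all genes, DESeq2 15 genes, and 808 of 13085 had an unadjusted p under 0.05. These comparisons share groups with each other and with the genotype comparisons.

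The balance of opposing members was read as a description, with no test, since it follows from the differences above. It covers the members only. The pore former Bok (46.5 CPM in untreated wild-type and 69.3 CPM in untreated knockout cells) and the guardian gene Bcl2l2 (79.2 and 71.5 CPM) are outside the sums. A balance that includes them was not computed. The summed RPKM of Bax and Bak1 divided by that of the 3 guardians was 0.784 ± 0.0335 in wild-type and 0.637 ± 0.0744 in knockout libraries without treatment. Under H2O2 it was 0.827 ± 0.0698 and 0.615 with a range of 0.607 to 0.622. Knockout replicate 3, at 0.748, was the 1 knockout library within the range of wild-type cells. The familiar ratio of Bax to Bcl2 went from 29.4 ± 0.959 to 21.8 ± 4.68 without treatment, and it rested on a Bcl2 level of under 3 RPKM.

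Within the BH3-only class the makeup shifted as well. The ratio of Bbc3 to Bad RPKM was 0.742–0.846 in untreated wild-type, 0.695–0.816 in treated wild-type, 0.985–1.39 in untreated knockout and 1.15–1.27 in treated knockout libraries. These ranges put every knockout library above every wild-type one. Bbc3 had the highest and Bad the lowest log2 difference of the tested BH3-only genes, so this separation follows from the differences above and is no further result. The summed RPKM of the class over that of the guardians was 0.687 ± 0.0229 in wild-type and 0.608 ± 0.0543 in knockout cells without treatment. Knockout replicate 3, at 0.681, lay within the wild-type range of 0.664 to 0.711. Bid supplied 55.3 ± 2.00% of the class's summed RPKM in wild-type and 50.5 ± 2.22% in knockout cells without treatment.

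Within groups, correlations between members ran in both signs. After group means were removed, 19 of 36 pairs of members had a positive Pearson correlation of log2 CPM over the 15 libraries, with a median of 0.17. The highest was between Bax and Bbc3, both p53 targets, at 0.73 (Spearman 0.68), and the lowest between Bcl2 and Bid at −0.53 (Spearman −0.56). Knockout replicate 3 was high in both Bax and Bbc3. Without it the Bax and Bbc3 correlation was 0.59, and without it and wild-type replicate 16 it was 0.62. In both cases the group means removed were still those over all 15 libraries, so the libraries left out still entered through the means. The libraries differ in depth, whether they share a culture is not stated, and the values carry no p.

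**Figure D4:**
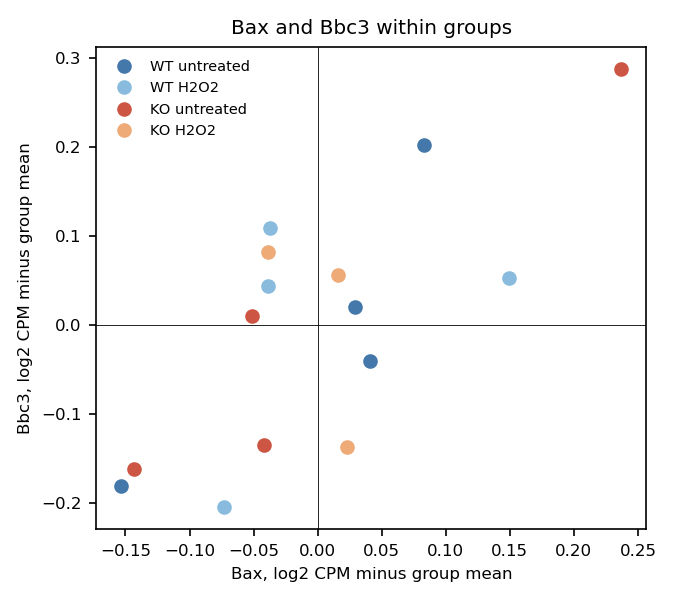
Deviations of Bax (x axis) and Bbc3 (y axis) from their group means in log2 CPM, 1 point per library, coloured by group. The points rise together (Pearson 0.73 over 15 libraries), with untreated knockout replicate 3 at the upper right.

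Other genes of the pathway were followed in lists drawn from general knowledge, with earlier results of these data known. Of 70 genes, 59 were tested, and in untreated knockout cells 28 were higher and 17 lower (median log2 0.09), beside 33.9% of all tested genes higher and 32.9% lower (66.8% called). The same shares stand beside every untreated list count below, and no count of such small lists is read as a result about its list. Among the other BCL2 family genes 3 of 9 could be tested. Bok, a pore former found at the endoplasmic reticulum, was at 46.5 ± 1.17 CPM in wild-type and 69.3 ± 3.82 CPM in knockout cells (log2 0.58, adjusted p 9.84e-11, edgeR). The BH3-only gene Bmf fell from 1.05 ± 0.196 to 0.24 ± 0.0387 CPM (log2 −2.09), and Bcl2l2, which encodes the guardian BCL-W, fell slightly (log2 −0.15). Hence 1 pore former was higher while Bax and Bak1 were lower. Of 4 tested BCL2-related genes 1 was higher and 1 lower, the latter the mitophagy receptor Bnip3l (log2 −0.23).

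Downstream of the pore, 6 of 12 apoptosome and caspase genes were higher and 3 lower (median log2 0.14), where 33.9% of all genes were higher and 32.9% lower. Htra2, a mitochondrial protease, rose by 0.37 on the log2 scale (adjusted p 8.10e-08, edgeR). The lower ones included Casp8, which cuts BID (log2 −0.25), and Diablo, an antagonist of caspase inhibitors (log2 −0.17), whose difference did not pass with H2O2 (log2 −0.04, adjusted p 0.522, edgeR). Among 6 caspase inhibitors 2 were higher and 3 lower, against the same 33.9% and 32.9% of all genes. Survivin (Birc5) rose from 26.7 ± 2.72 to 68.4 ± 5.43 CPM and Birc3 from 9.77 ± 0.378 to 23 ± 3.46 CPM, while Birc2 (log2 −0.27) and Cflar, the brake on caspase-8, fell (log2 −0.14). Birc5 is also a gene of mitosis, and in knockout replicate 4 Birc3 was at 17.8 CPM against 24.4 to 25.1 in the other 3.

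Of 7 tested death receptor genes, 4 were higher and 2 lower, with 66.8% of all genes called (33.9% higher, 32.9% lower). Fas went from 2.1 ± 0.374 to 12.2 ± 4.36 CPM (edgeR log2 2.52, adjusted p 6.16e-06) and the ligand TRAIL (Tnfsf10) from 0.595 ± 0.15 to 2.51 ± 0.696 CPM (log2 2.06). Knockout replicate 4 stood apart for Fas, at 5.74 CPM against 13.6 to 15.5 CPM in the other untreated knockout libraries. The TRAIL receptor Tnfrsf10b fell by 0.17 and the kinase Ripk1 by 0.13 on the log2 scale. Fas was higher where Bid and Casp8, the genes that carry its signal to mitochondria, were lower, and a link between these differences was not tested.

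Upstream, 7 of 11 transcription factors known to act on family genes were higher and 0 lower (median log2 0.28), with 66.8% of all genes called and 33.9% higher. Trp53, which encodes p53, rose from 104 ± 1.7 to 158 ± 10.8 CPM (log2 0.60, adjusted p 4.84e-13, edgeR) and Myc from 384 ± 49.8 to 611 ± 22.8 CPM (log2 0.67). Other p53 targets went both ways, 6 of 11 higher and 3 lower, against 33.9% and 32.9% of all genes. Eda2r, a receptor of the TNF receptor family, rose from 8.94 ± 0.568 to 34 ± 5.94 CPM (log2 1.92) and Sesn1 by log2 0.90. Knockout replicate 4 was the lowest untreated knockout library for Trp53 (142 CPM against 163 to 164) and for Eda2r (25.8 CPM against 33.2 to 38.5). It was also the lowest for Trp53inp1, at 56.4 CPM against 69.9 to 77.4 CPM. Perp, a desmosomal protein, fell from 38.5 ± 2.05 to 0.0675 CPM and Trp53inp1 by 0.70 on the log2 scale. Bax, itself a p53 target, was lower while Trp53 mRNA was higher, and a link between these differences was not tested. Of 5 genes that govern MCL1 turnover, 1 was higher and 3 lower, against 33.9% and 32.9% of all genes, among them the deubiquitinase Usp9x (log2 −0.33), with the ligase adaptor Btrc higher (log2 0.34), while no difference in Mcl1 mRNA was detected. With H2O2 30 of the 59 genes were higher and 17 lower in knockout cells, where 33% of all genes were higher and 32.4% lower. By edgeR 0 were called for H2O2 in either genotype, with an unadjusted p under 0.05 for 5 in wild-type and 2 in knockout cells. Of all 13085 tested genes, 847 in wild-type and 1041 in knockout cells had such a p.

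**Figure D5:**
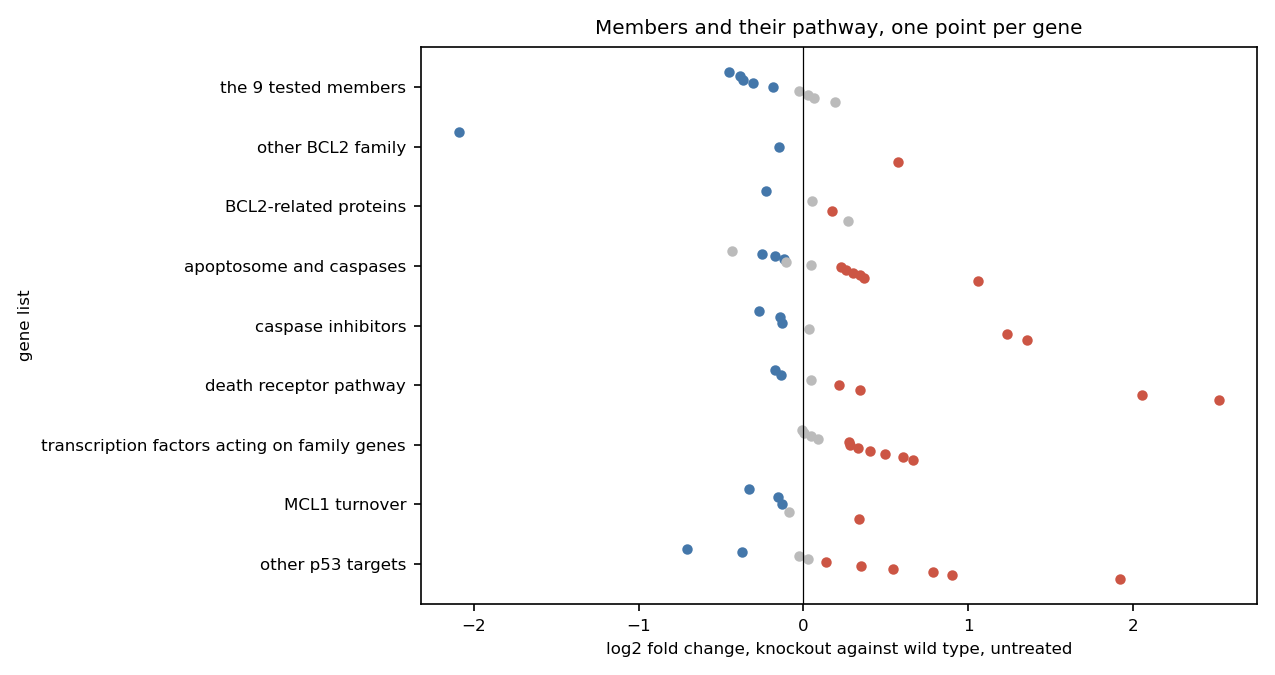
Log2 fold change of knockout against wild type without treatment (x axis), 1 point per gene, for the 9 members and 8 lists of pathway genes (rows); blue is called lower, red called higher, grey not called. Perp, whose fall lies beyond the axis, is not drawn; members span −0.45 to 0.19, and Fas reaches 2.52.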

How the data were processed

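Polyadenylated RNA was sequenced as read pairs (TruSeq Stranded mRNA, NextSeq), per the labels' protocols. The deposited expected counts per gene symbol are whole numbers, made by the authors with cutadapt, STAR and RSEM on mm10, per the submitters' processing notes, with no versions or settings; they were rounded before use, which changed nothing. The deposited RPKM values equal these counts over 1 constant per gene and 1 per library (largest relative deviation 6.8e-15 over 9805 genes); they cannot separate isoforms.

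The counts were tested with edgeR 4.0.16 (R 4.3.3, limma 3.58.1): filterByExpr kept 13085 genes with 99.917% of counts, TMM scaling, 1 robust quasi-likelihood model of 4 group means (11 residual degrees of freedom), Benjamini-Hochberg adjustment over all genes, calls under 0.05. SE is the log2 fold change over the root of F, and 95% intervals use it. The test was tried on simulated data. Alternatives were DESeq2 1.42.0, RLE factors, no filter, library totals, glmTreat at 1.2-fold, fits of 2 groups, limma on log2(RPKM + 0.1), and leaving out each library. Positions and overlaps came from GENCODE M21. A planned protein motif search was not run.

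The members and lists were chosen with earlier results of these data known. Members are named in every comparison; from each pathway list, up to 2 highest and 2 lowest called genes with at least 1 CPM and no overlap without treatment were named; 1 gene that this rule picks is not reported here.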

Additional observations from a re-analysis of the deposited data

Results flagged for a closer look

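Single libraries stood apart from the others of their group, by Dixon's ratio at the 95% level, in 6 of the 102 gene and group combinations of 4 libraries examined for named genes, where chance gives about 1 in 20. Of these, 2 fell on members. Bax was at 129.2 CPM in treated wild-type replicate 16, against 111 to 114 CPM in the other 3. Bcl2l1 was at 80.6 CPM in untreated knockout replicate 2, against 73.9 to 74.7 CPM. Birc3 was at 10.3 CPM in untreated wild-type replicate 9, against 9.53 to 9.64 CPM, and at 17.8 CPM in untreated knockout replicate 4, against 24.4 to 25.1 CPM. Ripk1 was at 80.5 CPM in wild-type replicate 9, against 77.6 to 77.8 CPM. Trp53 was at 142.1 CPM in knockout replicate 4, against 163.4 to 163.9 CPM. Wild-type replicate 9 and knockout replicate 4 were each flagged more than once. The combinations share libraries and are not independent, so the rate of 1 in 20 does not show whether these flags are due to chance.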

How the results depend on the processing

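The 5 lower members of the untreated genotype comparison were 5 under DESeq2, RLE factors, no filter, library totals, limma on RPKM, the fit of 2 groups, the average over treatments and each library left out, and 2 at 1.2-fold, where 4818 genes were called. Members higher numbered 1 in the average over treatments and 0 to 1 with a library left out, against 0. With H2O2 the lower members were 3 at 1.2-fold (4842 genes called) and 4 to 5 with a library left out. The higher member became 0 at 1.2-fold and 0 to 1 with a library left out. No tested member changed sign while called. Genes called for H2O2 in wild-type cells, 2 by edgeR, were 12 by DESeq2, 12 without the filter, 0 at 1.2-fold, 0 in the fit of 2 groups, 0 by limma and 0 to 13 with a library left out. In knockout cells the 7 genes became 61, 27, 0 and 3 by DESeq2, without the filter, at 1.2-fold and by limma, and 0 to 18 with a library left out. The interaction gave 0 by edgeR, 15 by DESeq2, 5 without the filter and 0 to 3 with a library left out. The cause of these shifts was not tested, and no member was called in those that gave it an adjusted p (DESeq2 gave none for Bcl2, Bad and Bbc3 in knockout cells or the interaction, nor for Bak1 and Bcl2l11 in the interaction). No paired analysis was possible because the replicate numbers run on through the groups and are shared by none. Low counts kept Pmaip1 from being tested.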
